A study of Mus musculus with 2 samples.

Results

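Mature goblet cells without an interferon program were taken from 2 single-cell RNA-seq libraries by a gate on measured RNA. A droplet barcode was kept when it held at least 1354 unique molecular identifiers (UMIs, 1 for each captured RNA molecule), 200 or more genes and no more than 25% of its UMIs from mitochondrial genes. A kept barcode was called a goblet cell when Muc2, Fcgbp, Clca1, Zg16 and Tff3 together made up at least 1% of its UMIs and α-defensin genes with Lyz1 stayed under 5%. Barcodes with 5 or more of the 8 mitosis genes Mki67, Top2a, Birc5, Ube2c, Nusap1, Cenpf, Ccnb2 and Cdk1 were left out, as were those with 4 or more of the 8 interferon-response genes Isg15, Ifit1, Oasl2, Ifi44, Rsad2, Ddx60, Usp18 and Oas3. The gate held 3471 of 12554 kept cells. The cells were thus chosen by the measured UMIs of the gate genes, and the levels of the gate genes describe the choice and support nothing.

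The cells came from the intestine of mice on day 7 of 2.5% dextran sulfate sodium (DSS), a polymer that damages the gut epithelium. The WT library was made from wild-type littermates and the MG53-TG library from mice that overexpress MG53 (the product of Trim72, known for resealing damaged muscle membranes) throughout the body, and both groups had received DSS. Crypts were dissociated with an enzyme, and cells positive for EpCAM and negative for the dead-cell dye 7-AAD were sorted before capture with 10x Genomics 3′ chemistry. The study also describes the cells as CD45-, a gate against leukocytes that the sorting protocol does not name. It used several mice per group, but how they were combined into 1 library, their age and the segment of intestine are not given in the sources used here. With 1 library per genotype there was no replicate, so no test between genotypes was possible, and 95% intervals cover counting error only. Genotype cannot be told apart from the library, from the Cell Ranger version or from the filtering of barcodes before deposit.

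Goblet cells are secretory cells of the gut epithelium that fill their apex with mucin granules and release them onto the surface. MUC2 is the gel-forming mucin of intestinal mucus, and FCGBP, CLCA1, ZG16 and TFF3 are secreted with it. The cells descend from crypt stem cells through an Atoh1-driven secretory progenitor, mature under Spdef and Klf4, and move up towards the luminal surface, where they are shed. Mucin is folded in the endoplasmic reticulum (ER), sugar-coated in the Golgi and stored in granules until exocytosis.

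The transgene was checked first. Trim72 (ENSMUSG00000042828, chromosome 7, 128003949 to 128011033, plus strand, GRCm38) had 26 UMIs in the WT goblet cells and 1438 in the MG53-TG goblet cells. This was 1.01 CPM (UMIs of a gene per 1000000 UMIs of its group of cells) in WT, with an exact Poisson interval of 0.660 to 1.48, and 48.4 CPM in MG53-TG (45.9 to 51.0), a log2 ratio of 5.58, and the libraries therefore matched their labels. After every cell was thinned to 1354 UMIs, Trim72 was detected in 0.226% of WT and 7.18% of MG53-TG goblet cells. Tuft-marked cells, with at least 5 tuft markers and gate markers under 1% of UMIs, had Trim72 in 0% and 8.14%. This type should lack goblet genes and serves below as the reference for free RNA, although the 1% limit by construction keeps goblet RNA in it low.

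Goblet cells made up 23.9% of kept WT cells (1772 of 7401, Clopper-Pearson interval 23.0 to 24.9) and 33.0% of kept MG53-TG cells (1699 of 5153, 31.7 to 34.3). The difference was 9.03 percentage points (7.42 to 10.6), and it held for these cells after a sort and a mitochondrial limit. That limit had removed 33.7% of WT and 46.1% of MG53-TG barcodes past the UMI and gene minimums, but 7.66% and 6.55% of the barcodes with goblet RNA. At a limit of 50% mitochondrial UMIs the shares were 19.5% and 22.5%, a difference of 2.92 points. Without the interferon and mitosis limits they were 27.7% and 41.1%. The WT goblet cells held 25752043 UMIs and those of MG53-TG 29708549. A median WT goblet cell had 14461 UMIs and 3160 genes, and a median MG53-TG goblet cell 17976 and 3648. The libraries shared 8 barcodes among kept cells and 0 among goblet cells.

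**Figure D1:**
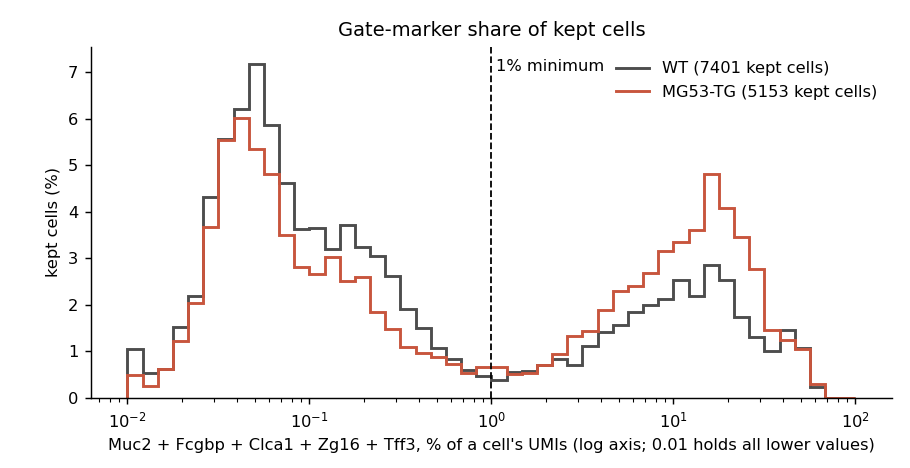
Share of kept cells (y axis, percent of the library) by the part of their UMIs taken by Muc2, Fcgbp, Clca1, Zg16 and Tff3 (x axis, percent, log scale), 1 outline per library, with the 1% minimum dashed and all lower values in the leftmost bar. Both libraries form a group near 0.1% and a second group with a median of 12.7% (WT) and 13.6% (MG53-TG) among gated cells; the right group also holds the interferon, mitotic and defensin-rich goblet-marked cells that the gate left out.

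The 1% minimum fell in the sparse zone between the groups of the plot of gate-marker shares. Gate markers made up a median of 12.7% of a WT goblet cell's UMIs (quartiles 6.72 and 21.5, highest 65.5) and 13.6% in MG53-TG (7.34 and 21.2, highest 63.5). All other kept cells had medians of 0.0769% and 0.0825%. Just inside the minimum, at 1% to 1.1%, lay 8 WT and 9 MG53-TG cells, and just outside, at 0.9% to 1%, lay 10 and 7. The interferon limit cut through denser ground. Cells with 3 of the 8 interferon genes, kept by the gate, numbered 114 in WT and 190 in MG53-TG, and cells with 4, left out, numbered 61 and 130. At the mitosis limit, 32 WT and 15 MG53-TG cells had 4 of the genes and stayed, whereas 32 and 24 had 5 and were left out.

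The goblet label held for the markers outside the gate. Agr2, a disulfide isomerase needed for mucin folding, stood at 11156 and 14202 CPM in goblet cells of the WT and MG53-TG libraries. Spink4, a small secreted goblet peptide, stood at 25414 and 27017 CPM, and Spdef, the transcription factor of goblet maturation, at 136 and 141 CPM. Of the 5 goblet markers outside the gate, Agr2, Bcas1, Capn9 and Spdef were at least 4-fold above all other kept cells in both libraries, and Spink4 was 4.93-fold above them in WT and 3.70-fold in MG53-TG. Markers of other cells were present as well. Over their whole lists, the summed level in WT and MG53-TG goblet cells was 10393 and 10487 CPM for 10 Paneth markers, 3431 and 3479 CPM for 10 enterocyte markers, 408 and 568 CPM for 10 enteroendocrine markers, and 286 and 140 CPM for 11 T cell markers. Tuft markers reached 61.7 and 71.3 CPM, stem markers 81.8 and 47.2 CPM, myeloid markers 1.24 and 1.41 CPM, and stromal markers 2.45 and 1.14 CPM. Of the defining colon genes, Car1, Hoxb13, Hoxa13, Hoxd13 and Ly6g had 0 UMIs.

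Paneth RNA was also found in cells that should have none. Defa24, an α-defensin, was at 5269 and 5209 CPM in WT and MG53-TG goblet cells, and after thinning it was detected in 73.3% and 62.0% of them. In tuft-marked cells, with median depths of 11814 and 14834 UMIs, the thinned shares were 51.4% and 33.6%, and WT droplets of 10 to 99 UMIs, which hold mostly free RNA, had Defa24 at 24911 CPM. The share with Defa24 in cells that should lack it thus differed between the libraries in the same direction as in goblet cells. Atoh1, the master gene of the secretory lineage, was detected in 22.4% of WT and 23.5% of MG53-TG goblet cells after thinning and in 0 of 278 and 0 of 307 tuft-marked cells, and without thinning in 82.9% and 86.5% of goblet cells and 3.6% and 1.63% of tuft-marked cells.

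Clustering of the 3471 goblet cells gave 14 clusters, which are described by number and leading genes. They were built from the same cells that the gate chose, and their sizes are not compared between libraries because leading genes such as Retnlb, Mptx1, Ang4 and the defensins differed between them. Cluster 1 led with Retnlb, an antibacterial resistin-like secreted protein, Rnase1 and Ccl9 (323 WT and 374 MG53-TG cells). Cluster 2 led with Scin, which severs actin filaments, Ifi27l2b and Gm5485 (196 and 371). Cluster 3 led with Serpina1b, Mptx1, Hsd11b2 and Ang4 (283 and 252), and cluster 5 with Gsta4, Zg16, 2210407C18Rik and Klk1 (135 and 190).

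Clusters 4 and 8 had the highest and the lowest median gate share of the 6 clusters without leading markers of other cell types and of normal depth. Cluster 4 led with Ido1, a tryptophan-degrading enzyme, Frmd3, the claudin Cldn4 and the Myc antagonist Mxd1 (262 and 172 cells), and gate markers took a median of 41.5% of its UMIs at a median depth of 6806 UMIs. Cluster 8 led with Sox4, a transcription factor of secretory progenitors, the tubulin regulator Stmn1 and Clca3b (91 and 51), with a gate share of 3.64%. Its leading genes do not go with a mature cell, so the word mature describes the gate and not every cell in it.

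The remaining clusters carried RNA of other cell types or were shallow. Cluster 6 led with the enterocyte genes Apoa1 and Apoa4, cluster 7 with Dmbt1, Olfm4 and Mgst1, clusters 9 and 11 with Paneth genes, cluster 12 with Gzma, Ccl5 and Igkc, cluster 13 with hormone genes and cluster 14 with tuft genes. Cluster 10 was shallow, with a median of 2431 UMIs, and led with Lars2 and Gm42418. Together these 8 clusters held 482 WT and 289 MG53-TG cells. The cells with the highest doublet scores, a fixed 5.92% of kept WT and 4.11% of kept MG53-TG cells, were 33.6% and 25.3% of them. In clusters 1 to 5 and 8 they were 1.16% and 0.284% of the cells. Scrublet, which gave the scores, itself marked only 0.0135% and 0.0388% of kept cells, so these are ranks and not doublet calls. Results are given below for all goblet cells and, where they differ, for the 1290 WT and 1410 MG53-TG cells of clusters 1 to 5 and 8 alone, called the core here, a choice made after the clusters had been seen.

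Of 4847 genes with at least 30 UMIs and a mean of 20 CPM in goblet cells, 104 (2.15%) were at least 4-fold above all other kept cells in both libraries, 99 of them outside the gate. The gate itself contrasts these cells, so the list is a description. Rep15, an effector of the recycling GTPase Rab15, was highest by the lower of the 2 library ratios. It stood at 623 and 732 CPM in WT and MG53-TG, 13.4 and 7.37 times the level in all other kept cells. Agr2 followed the same pattern at 13.2 and 6.85 times. The calpain Capn9 was 13.0 and 6.36 times, Bcas1 11.7 and 6.45 times, the ferlin Fer1l6 12.7 and 6.24 times, Scin 11.5 and 5.96 times, and the secreted phospholipase Pla2g10 11.1 and 5.86 times the level elsewhere. Anxa3, Gm12511, Smim5, Mfsd7a and Rap1gapos completed the 12 highest.

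The lower ratio in MG53-TG came with higher goblet RNA in the cells used for comparison. Gate markers summed to 11674 CPM in all other kept WT cells and 22749 CPM in those of MG53-TG, which include the goblet-marked cells outside the gate. Those numbered 119 and 253 for the interferon class, 162 and 167 for the mitotic class, and 225 and 182 for the defensin-rich class. In the kept cells outside all goblet and tuft gates, Agr2 was at 97.9 and 148 CPM in WT and MG53-TG, Rep15 at 6.36 and 8.64 CPM, and Zg16 at 214 and 201 CPM.

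**Figure D2:**
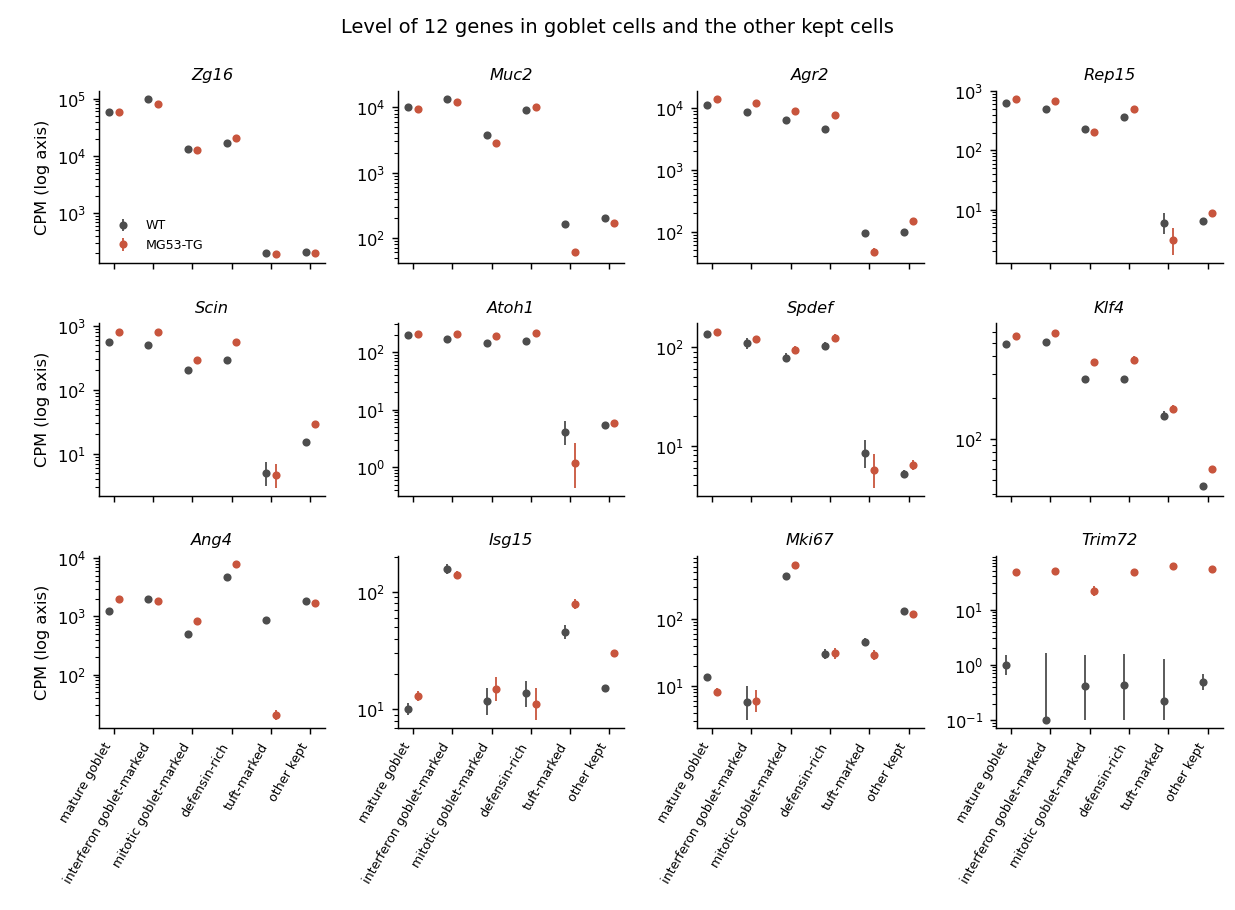
Level of 12 genes (CPM, log axes) in gated goblet cells and 5 other classes of kept cells, WT in grey and MG53-TG in red, with exact Poisson 95% intervals; a level of 0 is drawn at 0.1. Goblet genes fall off between the 4 goblet-marked classes and the tuft-marked and remaining cells, Zg16 was highest in the interferon class, and Trim72 was high in every class of MG53-TG.

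The interferon class passed every limit of the gate except the one on interferon genes. Zg16, a gate gene and a lectin that binds Gram-positive bacteria, was at 57853 CPM in WT goblet cells against 99407 CPM in the WT interferon class, and at 58647 against 80423 CPM in MG53-TG. Ido1 was at 65.3 against 252 CPM in WT and at 57.3 against 193 CPM in MG53-TG. Atoh1 showed no such step, at 196 against 168 CPM in WT and 202 against 205 CPM in MG53-TG. Agr2 was at 11156 against 8675 CPM in WT and 14202 against 12251 CPM in MG53-TG. Ido1 was thus higher and Agr2 lower in the interferon class of both libraries, with no replicate to test them. In the mitotic class Zg16 was at 13001 and 12530 CPM, and Muc2 at 3755 and 2806 CPM, below the 10056 and 9358 CPM of the gated cells.

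Between the libraries, few genes of the goblet cells differed. A difference was called when it reached 1.5-fold and its exact conditional binomial interval excluded equality. By this rule 22 of 4847 genes (0.454%) were higher in MG53-TG and 42 (0.867%) lower, and the median log2 ratio of MG53-TG over WT across all 4847 genes was 0.04 (quartiles -0.06 and 0.13). The gate genes were close, at 57853 and 58647 CPM for Zg16, 42862 and 42797 CPM for Tff3, 28940 and 28780 CPM for Fcgbp, and 10056 and 9358 CPM for Muc2. Clca1, a secreted protease that processes mucus, differed most among them, at 6793 and 8561 CPM (log2 ratio 0.33, 0.33 to 0.34), under the 1.5-fold rule.

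**Figure D3:**
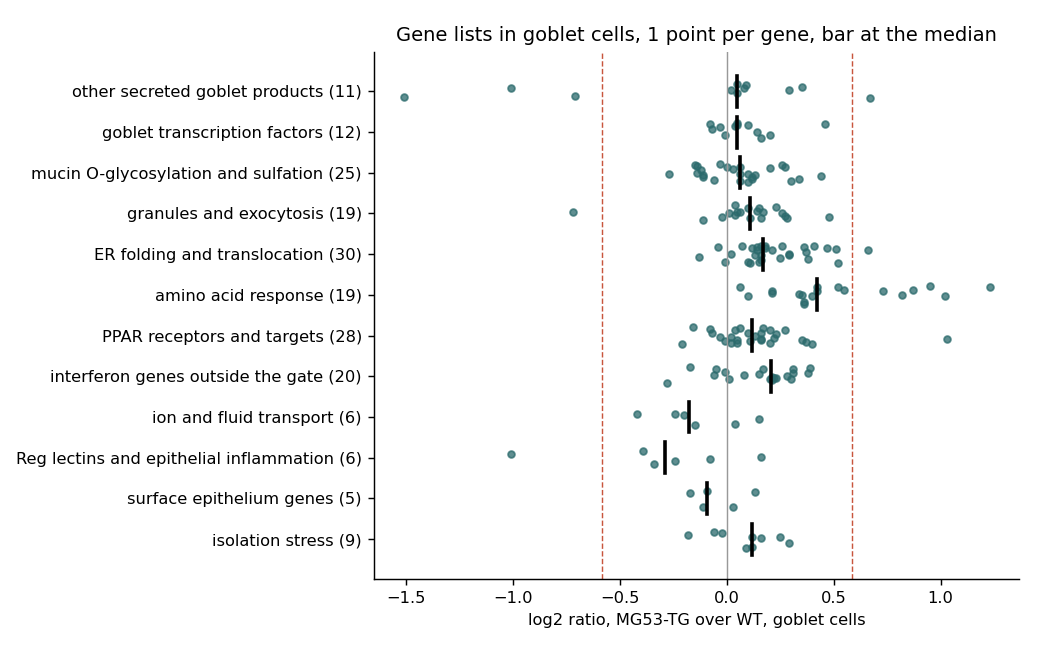
Log2 ratio of MG53-TG over WT in goblet cells (x axis) for the genes of 12 lists (y axis, number of genes that met the minimums in brackets), 1 point per gene, with the median as a bar and 1.5-fold as dashed lines. Most lists lie around 0. Of the amino acid response genes 19 of 19 lie above 0, against 60.7% of all genes, with a median of 0.42.

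Among the other secreted products, 11 of 16 met the minimums, 1 was higher (against 0.454% of all genes), 3 were lower (against 0.867%), and the list median was 0.05. Ang4 (ENSMUSG00000060615, chromosome 14, 51763878 to 51773590, minus strand), a bactericidal ribonuclease of Paneth and goblet cells, was at 1248 CPM in WT (1235 to 1262) and 1992 CPM in MG53-TG, a log2 ratio of 0.67 (0.65 to 0.69). It was higher in 12 of 14 clusters, but in the core the values were 1500 and 2074 CPM and the ratio of 0.47 missed the fold. Thinned, Ang4 was detected in 36.5% of WT and 43.2% of MG53-TG goblet cells and in 7.19% and 2.93% of tuft-marked cells, in which it stood at 881 and 20.1 CPM. Without thinning, Ang4 was detected in 32.4% and 29.3% of tuft-marked cells, and the part of free RNA in its ratio was not tested. Mptx1, a pentraxin-like secreted protein, was at 98.6 and 220 CPM (log2 ratio 1.16, 1.09 to 1.22) and in the core at 128 and 226 CPM. The 1% of cells with most Mptx1 held 66.7% of its WT and 45.3% of its MG53-TG UMIs, and the gene was higher in 8 of the 11 clusters that gave a ratio.

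Retnlb (ENSMUSG00000022650, chromosome 16, 48816856 to 48818892, plus strand) went the other way. It was at 284 CPM in WT (278 to 291) and 174 CPM in MG53-TG (170 to 179), a log2 ratio of -0.71 (-0.76 to -0.65). All 12 clusters with a ratio had less of it in MG53-TG, and the core gave 300 and 195 CPM. Thinned, 9.82% of WT and 8.36% of MG53-TG goblet cells had a Retnlb UMI, with intervals that overlapped, so the level differed more than the share of positive cells. Dmbt1, a scavenger-receptor glycoprotein of the mucosa, was at 398 and 140 CPM (log2 ratio -1.51) and Reg4, a lectin, at 112 and 55.5 CPM (log2 ratio -1.01). Cluster 13, with hormone genes, held 64.5% of the WT and 43.8% of the MG53-TG UMIs of Reg4, and the core gave a log2 ratio of -0.61 from 27.5 CPM in WT. Cluster 7, of 148 WT and 58 MG53-TG cells, held 83.0% of the WT and 79.0% of the MG53-TG UMIs of Dmbt1. Within cluster 7 the log2 ratio of Dmbt1 was only -0.34. In the core it was -1.47, from 55.4 CPM in WT, and Dmbt1 was lower in 12 of 12 clusters with a ratio. How far the number of cells in cluster 7 sets the ratio of Dmbt1 over all goblet cells was not tested.

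The other products stayed under the rule. Agr2 was at a log2 ratio of 0.35 (0.34 to 0.36), the protease Klk1 at 0.29, the guanylin gene Guca2a at 0.02, Lypd8, which binds flagella, at 0.05, and the lectin Itln1 at 0.08. Tff1 and Tff2 were below the minimums, at 0.194 and 2.32 CPM for Tff1 and 2.10 and 6.77 CPM for Tff2.

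The goblet regulators lay near all genes. Of 13 transcription factors, 12 met the minimums, 0 were called in either direction (against 1.32% of all genes), and the median was 0.05 against 0.04. At that share, 0 calls among 12 genes do not set the list apart. Atoh1 was at 196 and 202 CPM, Spdef at 136 and 141 CPM, Foxa3 at 156 and 161 CPM, and Klf4 at 491 and 565 CPM (log2 ratio 0.20, 0.17 to 0.24). Creb3l1, a membrane-bound factor of secretory capacity, was at 209 and 233 CPM, and Xbp1, a factor of the unfolded protein response, at 232 and 228 CPM. Bhlha15, a factor of mature secretory cells, was furthest from 0, at 18.8 and 25.7 CPM (0.46, 0.29 to 0.62). Among Notch genes, the ligands Dll1, at a log2 ratio of 0.16, and Dll4, at -0.08, alone met the minimums.

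The mucin modification enzymes lay near all genes too. Of 25 glycosylation and sulfation genes that met the minimums 0 were called (against 1.32% of all genes), and their median was 0.06 against 0.04. Galnt7, which adds the first mucin sugars, was at 472 and 571 CPM (log2 ratio 0.27), the core-forming Gcnt3 at 324 and 310 CPM (-0.06), the sulfotransferase Chst4 at 83.2 and 75.7 CPM (-0.14), and the sulfate donor synthase Papss1 at 84.1 and 114 CPM (0.44, 0.36 to 0.52), the furthest from 0. Of 19 granule and exocytosis genes 0 were higher (against 0.454% of all genes) and 1 was lower (against 0.867%), with a median of 0.11. Scin was at 563 and 788 CPM (0.48), the granule tether Sytl2 at 235 and 276 CPM (0.23), Rab27b at 223 and 271 CPM (0.28), and Rab3d at 172 and 178 CPM (0.05). The gene called lower was Nlrp6, an inflammasome sensor, at 31.1 and 18.8 CPM (-0.72), which in the core was at 6.81 and 4.94 CPM.

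ER folding genes lay slightly above 0. Of 30 that met the minimums 27 had a ratio above 0, as had 60.7% of all 4847 genes, with a median of 0.17 against 0.04 over all genes, but only 1 passed the fold (against 0.454% of all genes higher). This was Hyou1, an ER chaperone, at 48.2 and 76.0 CPM (log2 ratio 0.66, 0.56 to 0.76). It missed the call at 0.56 with the mean of single-cell CPM and at 0.31 with cells thinned. Hspa5, the main ER chaperone, was at 688 and 953 CPM (0.47, 0.44 to 0.50), Hsp90b1 at 644 and 840 CPM (0.38), Creld2 at 34.3 and 49.2 CPM (0.52), and Dnajb9 at 41.7 and 59.4 CPM (0.51). Ern2, the epithelial stress sensor, was at 207 and 235 CPM (0.18). In all other kept cells Hspa5 was at a log2 ratio of 0.46 and Hyou1 at 0.75.

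The 19 amino acid response genes that met the minimums all had a ratio above 0. In this response the factor Atf4 switches on genes of amino acid synthesis, uptake and tRNA charging when amino acids are short or the ER is stressed. Of 29 listed genes 28 could be matched and 19 met the minimums. Of these 6 were higher (against 0.454% of all genes) and 0 were lower (against 0.867%). Ratios above 0 numbered 19 of 19, against 60.7% of all genes, and the median was 0.42 against 0.04. The list was chosen with results of these libraries known, so its direction is not independent evidence. Asns (ENSMUSG00000029752, chromosome 6, 7675169 to 7693254, minus strand), asparagine synthetase, was at 113 CPM in WT (109 to 117) and 199 CPM in MG53-TG, a log2 ratio of 0.82 (0.76 to 0.89). Phgdh and Psph, enzymes of serine synthesis, were at 19.6 and 46.0 CPM (1.23) and at 17.5 and 35.4 CPM (1.02). The mitochondrial folate enzyme Mthfd2 was at 41.6 and 76.3 CPM (0.87), and Atf5, a relative of Atf4, at 36.5 and 70.7 CPM (0.95).

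Atf4 mRNA itself was at 184 and 213 CPM (0.21), and the stress genes Ddit4 and Cebpg were at 0.10 and 0.21, against an upper quartile of 0.13 over all genes. The tRNA ligases Lars, Aars, Sars, Gars and Tars lay between 0.36 and 0.52, Wars at 0.06, and Nars, which was outside the list, at 206 and 318 CPM (0.63). Eif4ebp1, a brake on translation initiation, was outside the list too, at 117 and 207 CPM (0.82). The differences were spread over the clusters. Eif4ebp1 was higher in 13 of 13 clusters with a ratio, Asns in 12 of 13, Atf5 in 9 of 9 and Phgdh in 8 of 8. In the core 6 of 18 genes were higher and the median was 0.38, against 17 of 4679 genes higher and a median of 0.05 over all genes there.

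All other kept cells moved likewise, with a median of 0.55 over the 19 genes, against a median of 0.13 over all genes in those cells. Asns stood there at a log2 ratio of 0.88, and the ratio in goblet cells minus that in all other kept cells was -0.06 (-0.14 to 0.02). Mthfd2 gave a difference of -0.00 (-0.12 to 0.12) and Atf5 one of -0.57 (-0.70 to -0.43). A higher Asns, Mthfd2 or Atf5 was therefore not particular to goblet cells.

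Nupr1 (ENSMUSG00000030717, chromosome 7, 126623249 to 126630861, minus strand), a small stress-induced chromatin protein, was also called in goblet cells. It was at 156 CPM in WT goblet cells (151 to 161) and 259 CPM in MG53-TG, a log2 ratio of 0.73 (0.68 to 0.79), whereas all other kept cells were at -0.12 (-0.17 to -0.08). The difference of 0.86 (0.78 to 0.93) had a counting interval clear of 0. Nupr1 was higher in 13 of 14 clusters, and the core gave 187 and 286 CPM. After thinning it was detected in 18.4% of WT and 27.3% of MG53-TG goblet cells, and in 0.360% and 0.651% of tuft-marked cells. The goblet-marked cells outside the gate were not alike: Nupr1 was at 63.5 and 120 CPM in the mitotic class, 248 and 294 CPM in the interferon class, and 311 and 326 CPM in the defensin-rich class. It was at 78.9 and 48.7 CPM in the kept cells outside all goblet and tuft gates, so the difference from all other kept cells does not set the gated cells apart from the mitotic class.

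The promoters of Asns, Nupr1 and Hspa5 are shown because they carry the sequence elements by which these groups are known. TGATGNAA is a form of the element bound by Atf4 with a C/EBP partner, and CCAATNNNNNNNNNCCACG is the ER stress element. Each window holds 250 bases before and 50 after the start of the gene in RefSeq (GRCm38.p6), in gene direction, and capitals mark the match. On either strand TGATGNAA occurred in 3.97% of 32851 promoter windows and in 5 of the 16 amino acid response genes with a window (Aars, Asns, Gars, Nupr1 and Tars). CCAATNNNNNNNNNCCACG occurred in 0.119% of all windows and in 7 of 24 ER genes (Calr, Canx, Creld2, Dnajc3, Hsp90b1, Hspa5 and Pdia6). The elements were chosen after the values had been seen, a match is no proof of binding, and TGTTTAC (3.65% of windows) and GATAAG (7.44%), also searched, occurred in 0 of the 2 gate markers with a window and, both of them, in Guca2a and Reg4 among 8 other secreted products. The Asns window is chr6:7693160-7693459, minus strand, with the match 23 bases before the start. That of Nupr1 is chr7:126625421-126625720, minus strand, with the match on the opposite strand 110 bases before the start, and that of Hspa5 is chr2:34771840-34772139, plus strand, with the match 65 bases before it.
Asns: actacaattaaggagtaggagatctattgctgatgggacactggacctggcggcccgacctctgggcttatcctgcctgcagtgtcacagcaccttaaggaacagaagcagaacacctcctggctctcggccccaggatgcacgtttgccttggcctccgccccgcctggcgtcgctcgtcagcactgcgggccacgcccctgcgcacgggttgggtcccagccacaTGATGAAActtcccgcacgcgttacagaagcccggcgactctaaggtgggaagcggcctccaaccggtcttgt
Nupr1: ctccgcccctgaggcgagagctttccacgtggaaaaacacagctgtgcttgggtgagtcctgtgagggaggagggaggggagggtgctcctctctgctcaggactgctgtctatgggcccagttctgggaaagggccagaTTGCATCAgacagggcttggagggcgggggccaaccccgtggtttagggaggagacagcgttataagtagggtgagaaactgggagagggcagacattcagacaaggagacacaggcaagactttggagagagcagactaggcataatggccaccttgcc
Hspa5: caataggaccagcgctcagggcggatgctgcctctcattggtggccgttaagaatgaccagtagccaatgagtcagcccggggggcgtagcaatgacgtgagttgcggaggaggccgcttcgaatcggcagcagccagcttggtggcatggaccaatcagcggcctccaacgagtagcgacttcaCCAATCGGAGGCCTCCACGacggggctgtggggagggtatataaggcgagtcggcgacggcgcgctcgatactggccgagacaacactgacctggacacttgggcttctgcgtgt

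PPAR receptors and their targets, which run fatty acid oxidation, held 1 higher gene (against 0.454% of all genes) and 0 lower genes among the 28 that met the minimums. Of these 22 lay above 0, against 60.7% of all genes, with a median of 0.12 against 0.04. Me1, the malic enzyme that makes NADPH, was at 36.7 CPM in MG53-TG (34.5 to 38.9), against a WT interval of 16.4 to 19.7 CPM (log2 ratio 1.03, 0.87 to 1.19), higher in 8 of 8 clusters. Hadha, of mitochondrial fat oxidation, was at 199 and 262 CPM (0.40), the carnitine transferase Cpt1a at 105 and 113 CPM (0.10), Ppard at 60.7 and 67.7 CPM (0.16), and Ppara, at 6.68 and 6.90 CPM, was below the minimums. In the core the median was 0.25 and 3 of 27 genes were higher, against 0.05 and 17 of 4679 over all genes there. The 3 included Me1 and Creb3l3, the latter at 15.5 and 25.2 CPM. Creb3l3 in all goblet cells was at 52.3 and 46.7 CPM, so the sign of its ratio depended on the cells of the other clusters.

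Interferon genes outside the gate showed 0 calls among 20 (against 1.32% of all genes). Their median was 0.21, and 15 lay above 0, against 60.7% of all genes. Zbp1 was at 44.3 and 53.8 CPM (0.28), Ifi27l2b at 1202 and 1401 CPM (0.22), and Irf7 at 40.7 and 36.3 CPM (-0.17). The gate had removed 119 WT and 253 MG53-TG goblet-marked cells for interferon genes, so these values describe what was left below its limit. MHC class II genes gave 0 calls among 5 (against 1.32% of all genes) and a median of -0.11. Cd74, their invariant chain, was at 231 and 174 CPM (-0.40) and H2-Ab1 at 128 and 154 CPM (0.26), and in the core the median was 0.27 over the 3 genes that met the minimums.

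Of 6 ion transport genes 0 were called (against 1.32% of all genes) and the median was -0.17. The chloride cotransporter Slc12a2 was at 391 and 352 CPM (-0.15). Among 6 Reg lectin and inflammation genes 1 was lower (against 0.867% of all genes), with a median of -0.29. Reg3b and Reg3g, antibacterial lectins, were at 5274 and 4169 CPM (-0.34) and at 3217 and 2453 CPM (-0.39). Reg3b was detected after thinning in 67.0% and 46.4% of goblet cells and in 45.3% and 25.7% of tuft-marked cells, and the part of free RNA in its counts was not tested. Reg1 was at 72.8 and 36.1 CPM, and cluster 7 held 62.1% and 63.8% of its UMIs. Within cluster 7 its log2 ratio was 0.26, in the core it was at 7.68 and 5.52 CPM, and it lost its call in 4 of 15 alternatives (-1.65 to -0.47). The membrane mucins gave 1 lower call among 3 (against 0.867% of all genes), Muc3 at 69.9 and 32.9 CPM (-1.09), while Muc3a was at 216 and 210 CPM and Muc13 at 1249 and 1230 CPM. Muc3 and Muc3a are alike in sequence and may share reads.

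Genes of surface epithelium (5, median -0.09) and of isolation stress (9, median 0.12) gave 0 calls (against 1.32% of all genes). Fos was at 99.3 and 118 CPM and Krt20 at 312 and 293 CPM. Of the regional genes, Fabp6, the ileal bile acid binder, was lower, at 97.3 and 39.2 CPM (-1.31). The 1% of cells with most Fabp6 held 87.2% of its WT and 96.0% of its MG53-TG UMIs. It was lower in 4 of the 5 clusters with a ratio. In cluster 7, which held 30.6% and 83.8% of its UMIs, the log2 ratio was 1.38. In the core Fabp6 was under the minimums, at 8.72 and 2.24 CPM. Gata4, of the proximal small intestine, was at 21.9 and 20.7 CPM.

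Several of the largest ratios sat in few cells. Sst and Cck, gut hormones, were at 61.4 and 170 CPM (1.47) and at 76.2 and 183 CPM (1.27), and cluster 13, with 20 WT and 16 MG53-TG cells, held 94.4% of the WT and 98.5% of the MG53-TG UMIs of Cck, and 45.6% and 98% of those of Sst. In the core both were under the minimums, at 6.99 and 3.16 CPM for Sst (-1.15) and 4.21 and 2.58 CPM for Cck (-0.71). Gip was at 78.6 and 22.2 CPM (-1.83), with 76.5% and 63.1% of its UMIs in cluster 13. Gzma and Ccl5, made by cytotoxic T cells, were at 132 and 65.5 CPM (-1.01) and at 103 and 49.5 CPM (-1.06), with 93.1% and 94.9% of Gzma in cluster 12, although T cells are leukocytes and a CD45- gate would remove them. Within that cluster, of 37 WT and 11 MG53-TG cells, the log2 ratio had the opposite sign, at 1.01 for Gzma and 1.02 for Ccl5. Over 15 alternatives Ccl5 lost its call in 4, with ratios from -1.97 to -0.11. Defa30, an α-defensin, was at 278 and 76.3 CPM (-1.86), lower in 14 of 14 clusters and at 7996 CPM in WT droplets of 10 to 99 UMIs, and its near-identical relatives AY761184, Defa21 and Defa22 were lower too. In all other kept cells Defa30 was at -0.74. Mgst1, a glutathione transferase, was at 118 and 64.8 CPM (-0.87), with 72.5% of its WT UMIs in cluster 7, where the log2 ratio was 0.17, and under the minimums in the core. The mitochondrial gene mt-Nd3 was at 463 and 281 CPM (-0.72), and in the core, where it missed the fold, at 325 and 219 CPM (-0.56).

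**Figure D4:**
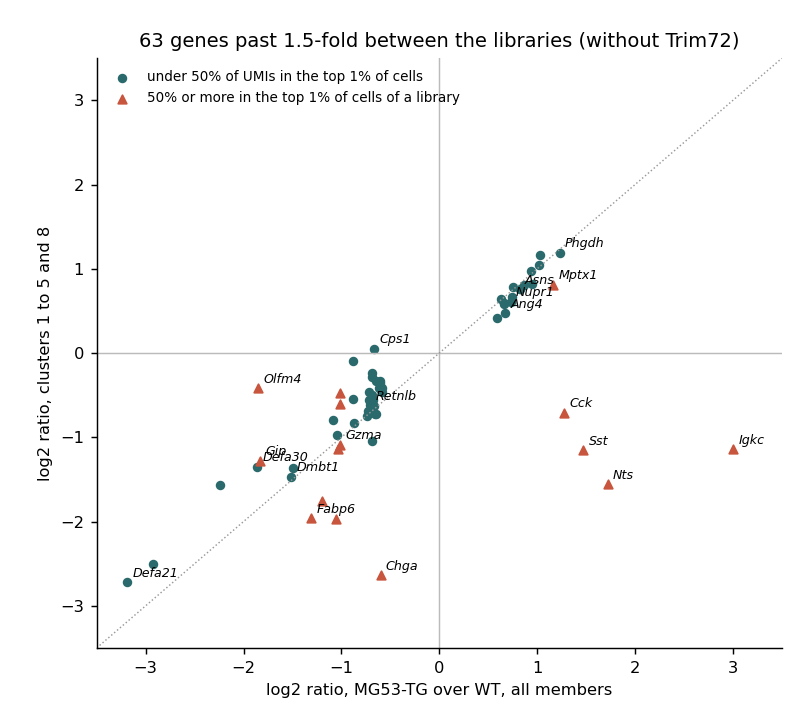
Log2 ratio of MG53-TG over WT in all goblet cells (x axis) against clusters 1 to 5 and 8 alone (y axis) for the 63 genes past the fold rule other than Trim72; triangles mark genes with 50% or more of their UMIs in the top 1% of cells of a library, and the dotted line is equality. Asns, Phgdh and Nupr1 lie close to the line, whereas Sst, Cck, Nts and Igkc fall from above 0 to below 0.

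In the core, 17 genes were higher and 19 lower among 4679. Of the 22 higher genes 15 were shared with it, and of the 42 lower genes 13. Beside Trim72, the genes higher in both included Asns, Phgdh, Psph, Mthfd2, Atf5, Eif4ebp1, Nars, Nupr1, Hyou1, Me1 and Mptx1. Pck2, a mitochondrial enzyme that Atf4 also controls (28.2 and 47.4 CPM, 0.75), the lipase Mgll (34.9 and 58.3 CPM, 0.74) and Pnliprp2 (18.7 and 35.7 CPM, 0.94), named after their values were seen, were higher in both sets as well. Gm5485, an unnamed gene, was at 54.6 and 86.0 CPM (0.66), and in the core at 61.9 and 92.8 CPM (0.58, 0.48 to 0.69), just under the 1.5-fold rule. Pnliprp2 differed in sign from all other kept cells, which were at -0.31. Retnlb, Dmbt1, Defa30, Muc3, Reg4 and the galectin Lgals3, at 76.5 and 47.4 CPM, were lower in both. Within the core, Muc3 and Lgals3 were mostly RNA of cluster 4, which held 262 WT and 172 MG53-TG cells. There Muc3 was at 180 and 160 CPM and Lgals3 at 324 and 297 CPM, against 4.78 to 67.0 CPM in clusters 1 to 3 of WT, and how far the number of cells per cluster sets their core ratios was not tested.

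The goblet cells also differed among themselves in how much of their RNA was mucus RNA. Core cells were divided at 5%, 10% and 20% of UMIs from the gate markers, with 110, 255, 467 and 458 WT cells and 108, 299, 553 and 450 MG53-TG cells in ascending order, and levels are CPM of the UMIs without the gate markers. The bins were made from the gate genes of the same cells, so what follows is a description. Over all goblet cells, the median depth of the top and the lowest bin was 11845 and 14214 UMIs in WT and 16206 and 16267 UMIs in MG53-TG.

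Some genes were nearly limited to the top bin. Ido1 was at 0, 0.588, 4.90 and 443 CPM from the lowest to the highest bin in WT, and at 2.17, 0.810, 8.63 and 325 CPM in MG53-TG. Mxd1 went from 16.5 to 352 CPM in WT and from 9.75 to 258 CPM in MG53-TG, with most of the step between the upper bins. Gsta4, a glutathione transferase, climbed more evenly, through 11.8 and 63.8 to 431 CPM over the upper 3 bins in WT and 15.2, 22.5, 78.8 and 384 CPM in MG53-TG. The 12 genes highest in the top bin against the lowest in both libraries, of those with a mean of 50 CPM, were Ido1, Gsta1, Gsta4, Mxd1, Lgals3, Clps, 2210407C18Rik, Ahnak, Odf2l, Id1, Enpp3 and the cell cycle inhibitor Cdkn2b.

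Mucus handling followed the gate share. Of 25 glycosylation genes 22 were higher in the top than in the lowest bin in each library, 17 of them stepwise in WT and 15 in MG53-TG, and of 19 granule genes 17 and 18 were, against 2776 and 2721 of 4842 genes in all. Gcnt3 went from 249 to 708 CPM in WT and from 229 to 587 CPM in MG53-TG, and Sytl2 from 176 to 521 CPM and from 174 to 520 CPM. Klf4, the factor of goblet maturation, went from 406 to 1066 CPM and from 503 to 1059 CPM, Krt20 from 140 to 904 CPM and from 110 to 721 CPM, and Lypd8 from 2828 to 11680 CPM and from 2949 to 10604 CPM. The interferon genes outside the gate were higher in the top bin for 17 of 20 in each library, Ifi27l2b going from 388 to 3282 CPM and from 495 to 3232 CPM, even though the gate had taken out the cells with most interferon RNA.

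Other genes ran against the gate share. Gpx2, an epithelial glutathione peroxidase, was at 1233, 740, 394 and 134 CPM in WT and at 1018, 547, 298 and 123 CPM in MG53-TG. Cd74 went from 439 to 41.9 CPM in WT and from 278 to 53.3 CPM across the bins, Creb3l1 from 387 to 210 CPM and from 386 to 222 CPM, and the Notch ligand Dll1 from 171 to 96.8 CPM and from 160 to 99.9 CPM. Sox4 and Stmn1 were largely in the lowest bin, Sox4 at 181 CPM there and 10.9 CPM in the next in WT, and at 119 and 20.1 CPM in MG53-TG. Atoh1 (221 to 324 CPM in WT, 243 to 294 CPM in MG53-TG) and Spdef (174 to 195 and 213 to 168 CPM) changed little by comparison. ER folding genes were not aligned with the gate share: 14 and 12 of 30 were higher in the top bin, and Agr2 peaked between 5% and 10%, at 18651 and 21397 CPM.

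**Figure D5:**
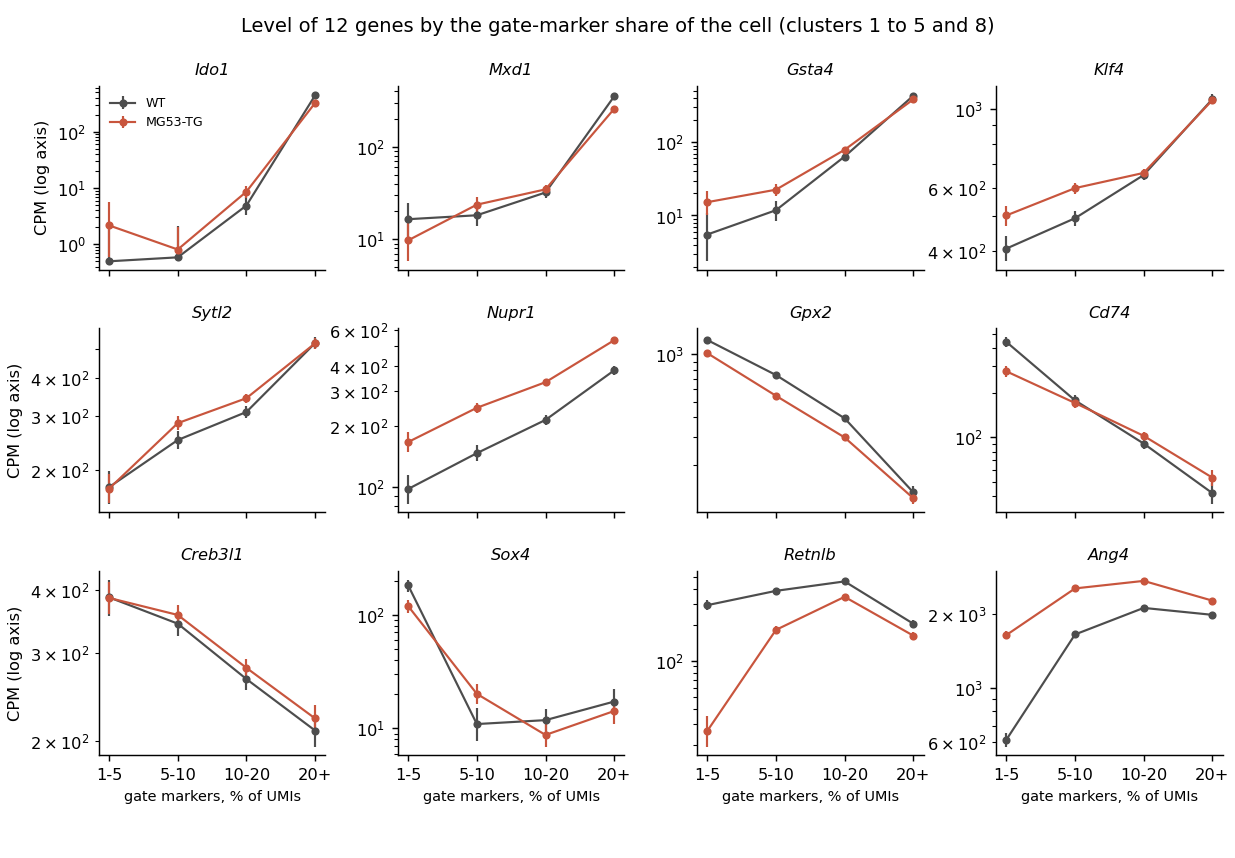
Level of 12 genes in core goblet cells (CPM without the gate markers, log axes) by the share of UMIs from the 5 gate markers (x axis, percent), WT in grey and MG53-TG in red, with exact Poisson 95% intervals; 0 is drawn at 0.5. Ido1, Mxd1 and Gsta4 are high in the top bin of both libraries, Gpx2 and Cd74 low, and the libraries are furthest apart for Retnlb and Ang4 in the lowest bin.

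The library differences were not equal along this axis. Retnlb in the lowest bin was at 293 CPM in WT (266 to 322) and 26.0 CPM in MG53-TG (19.2 to 34.5), and in the top bin at 205 CPM (190 to 220) and 163 CPM (152 to 175). Ang4 in the lowest bin was at 613 CPM (574 to 655) and 1642 CPM (1584 to 1701), and in the top bin at 1986 and 2270 CPM. The gaps of Retnlb and Ang4 were thus wider in the lowest bin. Over all goblet cells, the 1% of cells with most Retnlb held 38.4% of its WT and 42.7% of its MG53-TG UMIs, and these intervals cover counting error only. Cluster 8, with the lowest gate share in the core, had 91 WT and 51 MG53-TG cells. The part of the clusters in these gaps was not tested. Nupr1 went up with the gate share in each library and was higher in MG53-TG in every bin, from 97.6 (82.2 to 115) against 167 CPM (149 to 187) to 379 (359 to 400) against 535 CPM (514 to 556). Asns was flat, at 143 to 161 CPM in WT and 238 to 264 CPM in MG53-TG. With 110 and 108 cells in the lowest bin and 1 library per genotype, these differences between bins were not tested.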

How the data were processed

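Droplet libraries of 1 WT and 1 MG53-TG sample were analysed. The deposited values were counts, UMIs per gene and barcode, which the authors made with Cell Ranger on mm10. Per the headers of the deposited counts the program was version 4 for WT and 6.0.1 for MG53-TG, and Seurat was used downstream. The WT table listed 2005718 barcodes (158455748 UMIs) and that of MG53-TG 12361 barcodes, none under 500 UMIs (128227881 UMIs). Handling of strand and of reads that match several genes is not given in the sources used here, so near-identical genes (α-defensins, Reg3, Muc3 and Muc3a) are uncertain.

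Members were gated on the deposited counts as given in the results. The members and gene lists were chosen with earlier results of these data known. UMIs were summed over members in each library and scaled to CPM. Genes with at least 30 UMIs in total and a mean of 20 CPM were compared, and a gene was called at 1.5-fold when the exact conditional binomial 95% interval of the ratio excluded 1. With 1 library per genotype no test was run, and intervals cover counting error only, since droplets of 1 library are not replicates. Intervals of levels were exact Poisson, and of shares Clopper-Pearson. Named genes were the 12 highest and 12 lowest called genes with a mean of 50 CPM, the 12 genes outside the gate furthest above all other kept cells, Trim72 and list genes. Members were clustered with scanpy 1.11.5 and leidenalg 0.10.2 (2000 variable genes, 30 components, 15 neighbours, resolution 0.6, seed 0). Scrublet marked 0.0135% and 0.0388% of kept cells and so had not worked, and doublets were kept; as an alternative the highest scores, 0.8% per 1000 cells, were removed. Shares of cells with a UMI were taken after thinning to 1354 UMIs. Tuft-marked cells had at least 5 tuft markers and gate markers under 1% of UMIs. Python 3.11.15, numpy 2.4.6, scipy 1.17.1 and pandas 2.3.3 were used, and the comparison was tested on simulated data. Promoters were RefSeq GRCm38.p6 windows, found for 11 of 16 genes looked up.

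Results of lists not given elsewhere were as follows. Proximal small intestine genes had a median log2 ratio of 0.02 (2 genes) and ileum genes one of -0.59 (3 genes, 2 lower against 0.867% of all genes). In the core 1 ileum gene met the minimums, with a ratio of 0.05, and 0 were lower. Of 9 colon genes 0 met the minimums. Colonocyte markers summed to 66.8 and 44.3 CPM in WT and MG53-TG, B cell markers to 9.82 and 72.7 CPM, and epithelial markers to 6361 and 6001 CPM.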

Additional observations from a re-analysis of the deposited data

Results flagged for a closer look

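The 2 genes below passed the fold rule in goblet cells and differed the other way in all other kept cells past a minimum fold, which Pnliprp2, at -0.31 on the log2 scale there, just missed. Other called genes with the opposite sign there, such as Nupr1 (-0.12), stayed under that minimum too. With 1 library each, the difference between genotypes has no replicate. Igkc, the constant region of the immunoglobulin κ light chain, was at 8.31 and 66.5 CPM in WT and MG53-TG goblet cells, a log2 ratio of 3.0 (2.80 to 3.21), and at 483 and 269 CPM in all other kept cells, a ratio of -0.84. Of its 1977 UMIs in MG53-TG goblet cells, 1825 were in cluster 12, which had 11 cells and T cell markers among its leading genes. In clusters 1 to 5 and 8 Igkc was at 9.58 and 4.36 CPM, and in WT droplets of 10 to 99 UMIs at 20671 CPM.

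Retnlb was at a log2 ratio of -0.71 in goblet cells and at 0.42 in all other kept cells, where its level was 52.1 and 69.7 CPM. The ratio in goblet cells minus that elsewhere was -1.13 (-1.20 to -1.05). The other kept cells include goblet-marked cells outside the gate, with Retnlb at 65.1 and 235 CPM in the interferon class and 840 and 724 CPM in the defensin-rich class.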

How the results depend on the processing

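Over the alternatives, 240 values of counts, medians and shares stayed within their limits and 43 moved, and of the values of single genes 526 kept their call, 21 lost it and 8 turned direction. The amino acid response median ranged from 0.35 to 0.47, and Asns (0.76 to 0.83), Nupr1 (0.61 to 0.75) and Atf5 (0.82 to 0.97) kept their calls. The 22 genes higher in MG53-TG became 77 with members thinned to 1354 UMIs, 186 with no minimum other than 30 UMIs and 9 at 2-fold. The 42 lower genes became 25 with the highest Scrublet scores removed, 19 in clusters 1 to 5 and 8 (a choice made after seeing the data), 77 thinned, 476 with no other minimum and 17 at 2-fold. The 104 genes set apart became 164 without the interferon and mitosis limits, 216 with no other minimum and 403 at 2-fold.

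In clusters 1 to 5 and 8, list medians were -0.11 for membrane mucins, -0.04 for transcription factors, 0.01 for glycosylation, 0.14 for ER folding, -0.07 for Notch, -0.10 for Reg lectins and inflammation, 0.25 for PPAR and 0.27 for MHC class II. With members thinned they were -0.15 for membrane mucins, 0.21 for ER folding, -0.22 for ion transport, -0.39 for Reg lectins and inflammation and 0.22 for MHC class II. With the highest Scrublet scores removed they were 0.14 for ER folding, -0.18 for Reg lectins and inflammation and 0.14 for MHC class II. The gate on thinned cells gave 0.20 for ER folding and -0.22 for ion transport, and scaling by the median of ratios gave 0.13 for ER folding. Ion transport was at -0.21 with a 0.5% gate, at -0.22 without the interferon and mitosis limits, and at -0.24 both with a total that left out gate, Reg, defensin and mitochondrial genes and with no other minimum. Notch was at -0.10 with that total, at -0.08 with the mean of single-cell CPM and at -0.11 with no other minimum, where MHC class II was at -0.30. For MHC class II the sign thus depended on the setting, and the cause was not tested.

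The difference in goblet share of 9.03 points was 7.39 at a minimum of 5000 UMIs, 2.92 and 10.8 at mitochondrial limits of 50% and 10%, 12.8 with the gate on thinned cells and 13.4 without the interferon and mitosis limits. Sst turned to -1.15 in clusters 1 to 5 and 8, to -0.33 with the mean of single-cell CPM and to -0.31 thinned, and Cck to -0.71 in those clusters. Gip turned to 0.31 at 10% mitochondrial UMIs. Gzma turned to 0.34 with the highest Scrublet scores removed, 0.05 with the mean of single-cell CPM and 0.07 thinned. No paired analysis was possible because each genotype had 1 library. Depth limits genes under the minimums, for which no difference was called; the values of Sst and Cck in clusters 1 to 5 and 8 were under them.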
